A study of Rattus norvegicus with 12 samples.

Results

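Tight junctions are the seals near the apical edge of epithelial cells, where claudins and other membrane proteins of neighbouring cells meet and close the space between them. In the stratified epithelium of the cornea they lie in the outermost layer, and a chemical burn that strips this layer opens the barrier until the epithelium has grown back. Of 10 tight junction genes named for study, 9 had a row among the 30452 genes of the expression table, found by gene symbol, and Ocln was not analysed here. The 9 were the claudins Cldn1, Cldn3, Cldn4, Cldn7, Cldn12 and Cldn23, the junctional adhesion molecule F11r (JAM-A), and Tjp1 (ZO-1) and Cgn (cingulin), which sit under the membrane and tie the junction to actin.

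RNA was sequenced from ground rat corneas in 12 libraries, 3 in each of 4 groups. The groups were SF/HA-HEP-PAM, SF/HA, Alkali-burned and Control. SF/HA-HEP-PAM and SF/HA name versions of a silk-based patch for the ocular surface, the first of which has HEP-PAM added in its name. The labels do not spell these letters out, nor do they give strain, age, time after injury, or whether corneas with a patch had first been burned. They also do not say whether libraries of a group came from separate animals, so p-values measure the spread between these libraries, which may be technical.

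Libraries held 486264 to 2117399 reads assigned to genes, and the lowest of these totals belonged to Control library 1. The totals were 1245606 to 2117399 with SF/HA-HEP-PAM, 499061 to 957696 with SF/HA, 1173159 to 1265298 in Alkali-burned and 486264 to 1015788 in Control corneas. Every SF/HA-HEP-PAM and Alkali-burned library was thus deeper than every SF/HA and Control library. In comparisons across these pairs, depth and group cannot be told apart. In limma's estimate of library quality, Control library 1 and SF/HA library 2 had the lowest weights, 0.223 and 0.405, and the others had 0.738 to 2.33. Levels are given as CPM, the reads of a gene scaled to a common library total. Group differences are on the log2(CPM + 2) scale, from limma with Benjamini-Hochberg adjustment over the 8000 genes with at least 10 CPM in at least 3 libraries. A gene was called at an adjusted p below 0.05 and a difference of more than 2-fold, and "rose" and "fell" are used only of called genes. The comparisons share libraries, so their results are not independent of each other. The share of all genes whose libraries do not overlap between groups was not counted. Statements on overlap therefore describe the libraries named and are not tests. The corneal epithelial markers Krt12 and Krt5 had at least 7402 and 2469 CPM in every library, and 7 of the 9 genes passed the filter on low values. Cldn12 and Cgn did not. In whole tissue, the cell type that a read came from is not known. Fewer epithelial cells and less RNA per epithelial cell also cannot be told apart.

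Over the 4 groups, 5 of the 7 genes tested differed in a moderated F-test in limma, against 32% of all genes tested. The adjusted p was 2.21e-05 for Cldn1, 7.05e-05 for Cldn4, 0.000899 for Cldn23, 0.0147 for Cldn7 and 0.0469 for Tjp1. It was 0.108 for Cldn3 and 0.323 for F11r. Cldn1 and Cldn4 were highest with SF/HA-HEP-PAM and lowest in Alkali-burned corneas, whereas Cldn23 had the reverse order between patch and burned corneas.

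**Figure D1:**
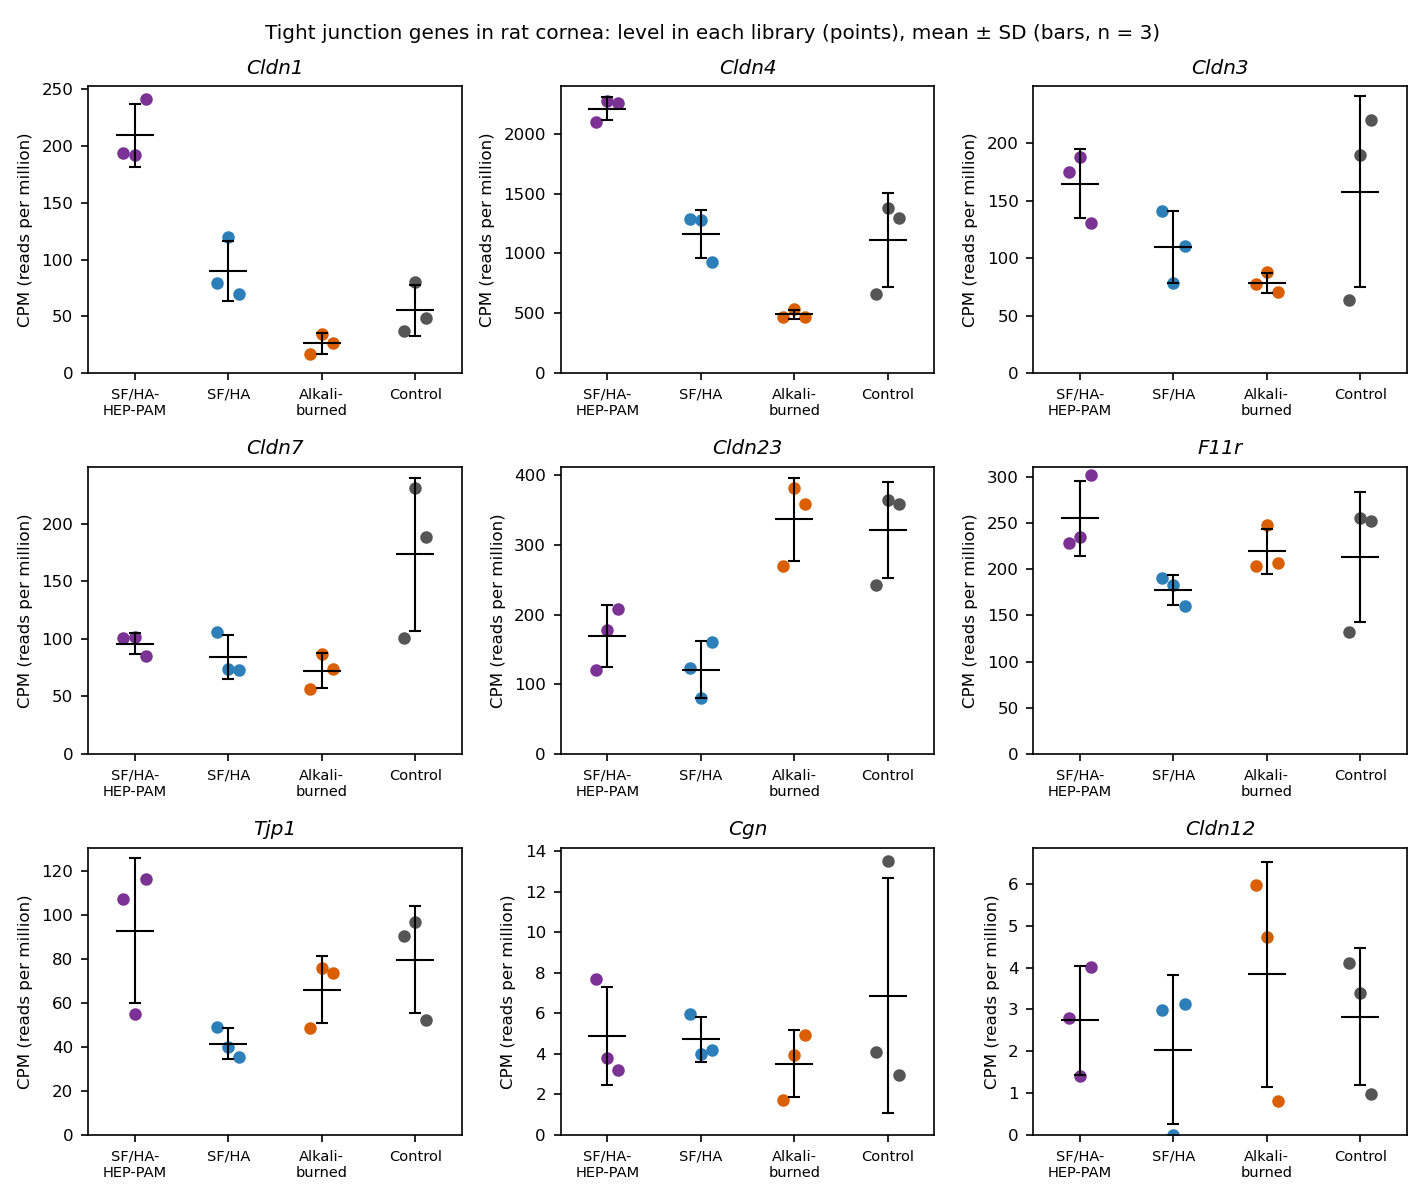
Level of each of the 9 measured tight junction genes (CPM, linear axes from 0) in the 12 libraries, grouped as SF/HA-HEP-PAM, SF/HA, Alkali-burned and Control. Points are libraries and bars are the mean ± SD (n = 3). Cldn1 and Cldn4 have their highest points with SF/HA-HEP-PAM, and Cldn23 is high in Alkali-burned and Control corneas.

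Cldn1, a barrier-sealing claudin that the skin of mice needs to hold water, had 194, 192 and 242 CPM with SF/HA-HEP-PAM and 79.3, 120 and 70.0 CPM with SF/HA. It had 17.0, 34.8 and 26.3 CPM in Alkali-burned corneas and 37.0, 80.1 and 48.2 CPM in Control corneas. All SF/HA-HEP-PAM libraries lay above every other library, all Alkali-burned libraries lay below every other library, and SF/HA overlapped Control.

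Cldn4, a claudin of simple and stratified epithelia whose loops also bind a Clostridium toxin, had 2098, 2274 and 2260 CPM with SF/HA-HEP-PAM and 1286, 1276 and 931 CPM with SF/HA. Its level was 472, 536 and 467 CPM in Alkali-burned corneas and 664, 1376 and 1298 CPM in Control corneas. The SF/HA-HEP-PAM libraries again lay above, and the Alkali-burned libraries below, every other library, and SF/HA overlapped Control.

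Cldn3, whose product is closely related to that of Cldn4, had 175, 188 and 131 CPM with SF/HA-HEP-PAM and 141, 78.1 and 111 CPM with SF/HA. It had 77.6, 87.7 and 70.6 CPM in Alkali-burned corneas and 63.8, 190 and 221 CPM in Control corneas. Control library 1 had the lowest Cldn3 level of all 12 libraries, while the other Control libraries had the highest levels, so Control overlapped every other group.

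Cldn7, a claudin that also lies along lateral membranes, had 101, 102 and 85.1 CPM with SF/HA-HEP-PAM and 106, 74.1 and 73.1 CPM with SF/HA. It had 56.3, 86.9 and 73.9 CPM in Alkali-burned corneas and 101, 231 and 189 CPM in Control corneas. Control libraries 2 and 3 stood above all others, and the remaining groups overlapped each other.

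Cldn23 had 121, 178 and 208 CPM with SF/HA-HEP-PAM and 123, 80.1 and 161 CPM with SF/HA. It had 269, 382 and 359 CPM in Alkali-burned corneas and 243, 364 and 359 CPM in Control corneas. The 6 libraries of the patch groups all lay below the 6 libraries without a patch.

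F11r, an immunoglobulin-type adhesion molecule of the junction, had 228, 235 and 302 CPM with SF/HA-HEP-PAM and 190, 182 and 160 CPM with SF/HA. It had 203, 247 and 207 CPM in Alkali-burned corneas and 132, 255 and 252 CPM in Control corneas. SF/HA lay below SF/HA-HEP-PAM and below Alkali-burned corneas without overlap, but these differences did not pass the test.

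Tjp1, the scaffold that claudins bind through their tails, had 108, 55.3 and 116 CPM with SF/HA-HEP-PAM and 49.4, 40.1 and 35.5 CPM with SF/HA. It had 48.6, 75.9 and 73.9 CPM in Alkali-burned corneas and 90.5, 97.0 and 52.2 CPM in Control corneas. SF/HA was lowest and lay below all SF/HA-HEP-PAM and all Control libraries.

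Cgn and Cldn12 were near the limit of detection. Cgn had 4 to 11 reads per library with SF/HA-HEP-PAM, 2 to 4 with SF/HA, 2 to 6 in Alkali-burned corneas and 2 to 12 in Control corneas. Cldn12 had 3 to 5 reads per library with SF/HA-HEP-PAM, 0 to 3 with SF/HA, 1 to 7 in Alkali-burned corneas and 1 to 3 in Control corneas. The SF/HA library without a Cldn12 read was the second, where a count of 0 allows up to 6.01 CPM, counting error only. Differences in these genes were not detectable at this depth.

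Cldn3, Cldn4, Cldn7 and Cldn23 have short rows in the table, and they are set side by side here on the deposited per-length scale (FPKM, here CPM per kilobase of gene span). The cDNA was primed with poly(dT), and whether reads scale with gene length in this protocol was not tested. With SF/HA-HEP-PAM, Cldn4 had 1050 ± 46.5 FPKM, Cldn23 78.8 ± 20.7, Cldn3 63.2 ± 11.5 and Cldn7 43.8 ± 4.22. In Alkali-burned corneas the same genes had 233 ± 18.3, 157 ± 27.7, 30.2 ± 3.30 and 33.1 ± 7.05 FPKM (SD, n = 3 each). Cldn4 thus stood first in both groups, as it did among these genes in CPM, with a much smaller lead over Cldn23 in Alkali-burned corneas. The rows of Cldn1, F11r and Tjp1 span introns of many kilobases, which lowers their FPKM, and they were left out of this ranking.

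On build mRatBN7.2, Cldn4 (chr12:21751331-21753436, plus strand) and Cldn3 (chr12:21708398-21711001, minus strand) are neighbours, 40.3 kb apart with 2 genes between them. Cldn1 lies at chr11:74421569-74436724, Cldn7 at chr10:54689987-54692171, Cldn23 at chr16:56413381-56415523, F11r at chr13:83873797-83897402 and Tjp1 at chr1:118849838-119094432. Each row is the whole gene, exons and introns together, of a protein-coding gene. An unnamed gene on the other strand overlaps Cldn3 and had 37 reads over the 12 libraries, against 1762 for Cldn3, and another overlaps 221 bases of F11r with 23 reads against 2920. The sources used here do not say whether counting used strand, so reads of such pairs may have been split between them.

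Promoters are shown for Cldn1 and Cldn3, which rose together with SF/HA-HEP-PAM against Alkali-burned corneas, and for Cldn7, which was not called there. They come from RefSeq on build GRCr8, with 250 bases before and 50 bases after the gene start, read along the gene's strand at chr11:87926126-87926425 (plus), chr12:27346498-27346797 (minus) and chr10:55188420-55188719 (plus). The table held 8 of the 10 genes named, and Cldn4 and Cldn23 were not among them. Capitals mark matches on either strand to the E-box of Snail-type repressors (CAGGTG) or the GC box (GGGCGG), none of which overlap in these windows.
Cldn1: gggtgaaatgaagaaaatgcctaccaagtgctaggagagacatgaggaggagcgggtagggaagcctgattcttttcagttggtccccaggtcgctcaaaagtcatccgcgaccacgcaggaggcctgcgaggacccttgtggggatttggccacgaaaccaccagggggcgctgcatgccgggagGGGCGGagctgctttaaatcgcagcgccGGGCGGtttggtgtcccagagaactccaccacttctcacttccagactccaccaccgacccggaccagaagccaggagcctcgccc
Cldn3: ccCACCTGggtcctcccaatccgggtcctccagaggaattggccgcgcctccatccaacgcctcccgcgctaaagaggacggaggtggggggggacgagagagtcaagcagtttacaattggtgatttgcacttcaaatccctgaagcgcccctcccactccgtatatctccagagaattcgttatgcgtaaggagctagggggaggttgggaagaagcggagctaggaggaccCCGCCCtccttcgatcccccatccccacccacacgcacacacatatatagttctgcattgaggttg
Cldn7: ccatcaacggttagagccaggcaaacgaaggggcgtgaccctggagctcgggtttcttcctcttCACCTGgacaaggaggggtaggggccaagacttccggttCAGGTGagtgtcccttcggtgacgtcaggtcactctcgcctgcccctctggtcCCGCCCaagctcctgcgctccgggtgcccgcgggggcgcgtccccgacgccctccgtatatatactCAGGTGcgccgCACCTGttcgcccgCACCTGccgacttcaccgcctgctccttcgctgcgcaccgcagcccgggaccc
Cldn7 had 5 E-box matches and 1 GC box, Cldn3 had 1 of each, and Cldn1 had 2 GC boxes and no E-box. Of 33469 rat promoters of this length, 18.8% held the E-box and 33.1% the GC box. The core of Grainyhead-like factors (AACCGGT, in 0.974% of promoters), an AP-1 site (TGANTCA, in 7.33%) and a TATA box (TATAAA, in 14.2%) had no match in these 3 windows. F11r and Tjp1, the other tested genes with a promoter, were also not called with SF/HA-HEP-PAM against Alkali-burned corneas. F11r had 1 E-box, 1 GC box and 1 AP-1 site, and Tjp1 had none of these motifs. The Cldn3 call in that comparison held in 6 of 12 leave-one-out fits. A link between matches and calls was not tested. A match is a run of letters and not a measured binding site.

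In Alkali-burned corneas, 3 of the 7 tested genes fell against Control corneas and none rose. Of all genes tested, 8.5% were called, 6.01% as higher and 2.49% as lower. Cldn7 averaged 72.4 ± 15.4 CPM in Alkali-burned corneas and 174 ± 66.6 CPM in Control corneas, Cldn4 averaged 492 ± 38.5 and 1113 ± 390 CPM, and Cldn1 averaged 26.0 ± 8.87 and 55.1 ± 22.4 CPM in the same order (SD, n = 3 each). The log2 difference was -1.18 (SE 0.27) for Cldn7 at an adjusted p of 0.00984, -1.11 (SE 0.24) for Cldn4 at 0.00665, and -1.01 (SE 0.30) for Cldn1 at 0.0385 in limma. For each of the 3, every Alkali-burned library lay below every Control library. The difference was -0.81 (SE 0.35) for Cldn3, -0.24 (SE 0.30) for Tjp1, 0.097 (SE 0.23) for F11r and 0.072 (SE 0.27) for Cldn23, and none of these 4 was called.

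All 3 calls were lost in some leave-one-out fits. Without Control library 2, none of the 7 was called: Cldn4 was at -0.92 with an adjusted p of 0.0388 in limma, Cldn7 at -0.94 with 0.0573 and Cldn1 at -0.71 with 0.173. Without Control library 3, Cldn4 stood at -0.96 and was no longer over 2-fold, and Cldn1 had an adjusted p of 0.0702. Without Alkali-burned library 1, the adjusted p in limma was 0.0542 for Cldn7 and 0.177 for Cldn1. Without Control library 1, 4 genes fell, Cldn3 being the fourth at -1.36 with an adjusted p of 0.00105. The Cldn1 call held in 6 of 12 leave-one-out fits and was also lost without Alkali-burned library 3 (adjusted p = 0.0912 in limma) and without SF/HA-HEP-PAM library 1 (0.0502) or 2 (0.0549). It held in 6 of 12 other settings. Those that lost it included quantile normalization (adjusted p = 0.0643 in limma) and a fit of only the compared libraries (0.097).

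The summed level of the 11 of 12 corneal epithelial markers with a row was 21207 to 32020 CPM in Alkali-burned corneas and 36001 to 62844 CPM in Control corneas, with Control library 1 at the low end. Of the 11, 5 were called lower and none higher, and the other 6, Krt12 and Krt5 among them, were not called. Krt15, a keratin of basal and limbal cells, lay the other way at 2353 ± 70.3 CPM in Alkali-burned and 1226 ± 681 CPM in Control corneas, without overlap and not called. Per 1000 CPM of these markers, Cldn4 had 18.1 ± 3.63 CPM in Alkali-burned and 20.3 ± 1.75 CPM in Control corneas, Cldn1 had 0.920 ± 0.148 and 1.02 ± 0.253, and Cldn7 had 2.60 ± 0.142 and 3.16 ± 0.460. The Cldn7 ratios did not overlap between these groups, and those of Cldn4 and Cldn1 did. Cldn23 had 12.2 ± 0.466 CPM per 1000 in Alkali-burned and 6.09 ± 0.565 in Control corneas, with no overlap. F11r per 1000 was likewise higher without overlap, at 8.05 ± 1.39 and 3.91 ± 0.221, and Tjp1 had 2.37 ± 0.0768 and 1.63 ± 0.844, with overlap. Unscaled, Cldn23 averaged 337 and 322 CPM and F11r 219 and 213 CPM in the same order, so their ratios differ through the marker sum. That sum was mostly Krt12 (7402 to 13453 and 12156 to 26182 CPM) and Aldh3a1 (6200 to 7586 and 12397 to 20598 CPM). The ratios are not levels per epithelial cell. Myeloid markers summed to 1959 to 7209 CPM in Alkali-burned corneas and 526 to 571 CPM in Control corneas, with 6 of 7 tested called higher. These sums were made up mostly of S100a9, at 1214 to 5847 and 319 to 355 CPM. Ptprc had 8.22 to 11.9 and 0 to 2.26 CPM in the same order. The part of cell makeup in the differences was not tested.

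With the SF/HA patch, Cldn1 and Cldn4 rose and Cldn23 fell against Alkali-burned corneas. These were 3 of the 7 genes tested, and 3.66% of all genes were called, 0.975% as higher and 2.69% as lower. Cldn1 averaged 89.8 ± 26.7 CPM with SF/HA and 26.0 ± 8.87 CPM in Alkali-burned corneas, Cldn4 1165 ± 202 and 492 ± 38.5 CPM, and Cldn23 121 ± 40.3 and 337 ± 59.4 CPM (SD, n = 3 each). The log2 differences in limma were 1.72 (SE 0.30, adjusted p = 0.00279) for Cldn1, 1.23 (SE 0.24, adjusted p = 0.00667) for Cldn4 and -1.50 (SE 0.27, adjusted p = 0.00356) for Cldn23. The libraries did not overlap for any of the 3, and all 3 calls held in each of 12 leave-one-out fits and 12 other settings. Cldn3 was at 0.44 (SE 0.35), Cldn7 at 0.22 (SE 0.27), F11r at -0.30 (SE 0.23) and Tjp1 at -0.63 (SE 0.30), none of them called.

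Epithelial markers summed to 29328 to 39139 CPM with SF/HA and 21207 to 32020 CPM in Alkali-burned corneas, and none of the 11 was called in either direction. Per 1000 CPM of them, Cldn4 had 34.2 ± 3.30 CPM with SF/HA and 18.1 ± 3.63 in Alkali-burned corneas, Cldn1 had 2.66 ± 0.809 and 0.920 ± 0.148, and Cldn23 had 3.67 ± 1.62 and 12.2 ± 0.466. None of these ratios overlapped between the groups.

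The same 3 genes were called with SF/HA-HEP-PAM against Alkali-burned corneas, and Cldn3 rose as well. Of all genes, 18.5% were called in this comparison, 13.5% as higher and 5.01% as lower. Cldn1 averaged 209 ± 28.0 CPM with SF/HA-HEP-PAM and 26.0 ± 8.87 CPM in Alkali-burned corneas, and its log2 difference was 2.96 (SE 0.30, adjusted p = 5.79e-06 in limma). Cldn4 averaged 2210 ± 97.8 and 492 ± 38.5 CPM, at 2.17 (SE 0.24, adjusted p = 1.34e-05 in limma). The differences of Cldn1 and Cldn4 exceeded the median of all genes, 0.15, by 2.80 and 2.01, and these 2 calls held in all 24 alternatives.

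Cldn3 averaged 165 ± 30.0 CPM with SF/HA-HEP-PAM and 78.6 ± 8.59 CPM in Alkali-burned corneas, at 1.04 (SE 0.35, adjusted p = 0.0398 in limma). Cldn23 averaged 169 ± 44.3 and 337 ± 59.4 CPM, at -1.01 (SE 0.27, adjusted p = 0.0115 in limma). Both lay at the edge of the call. The Cldn3 call was lost without any 1 of the Alkali-burned libraries, without SF/HA-HEP-PAM library 1 or 2, and without SF/HA library 3, and under both other scalings, where it stood at 0.85 and 0.88. The Cldn23 difference was under 2-fold at -0.78 without SF/HA-HEP-PAM library 1, -0.91 without Alkali-burned library 2 and -0.95 without Alkali-burned library 3. F11r was at 0.21 (SE 0.23), Cldn7 at 0.41 (SE 0.27) and Tjp1 at 0.44 (SE 0.30), none of them called.

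The epithelial marker sum was 42302 to 44515 CPM with SF/HA-HEP-PAM and 21207 to 32020 CPM in Alkali-burned corneas, and 6 of 11 markers rose. Keratocyte markers summed to 11395 to 19865 CPM with SF/HA-HEP-PAM and 25364 to 34013 CPM in Alkali-burned corneas. Per 1000 CPM of epithelial markers, Cldn4 had 50.8 ± 2.82 CPM with SF/HA-HEP-PAM and 18.1 ± 3.63 in Alkali-burned corneas, and Cldn1 had 4.82 ± 0.776 and 0.920 ± 0.148. Cldn3 had 3.77 ± 0.597 and 2.91 ± 0.677 on this scale, and its libraries overlapped. Cldn7 had 2.19 ± 0.159 and 2.60 ± 0.142 on this scale. The part of a changed cell makeup in these differences was not tested.

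**Figure D2:**
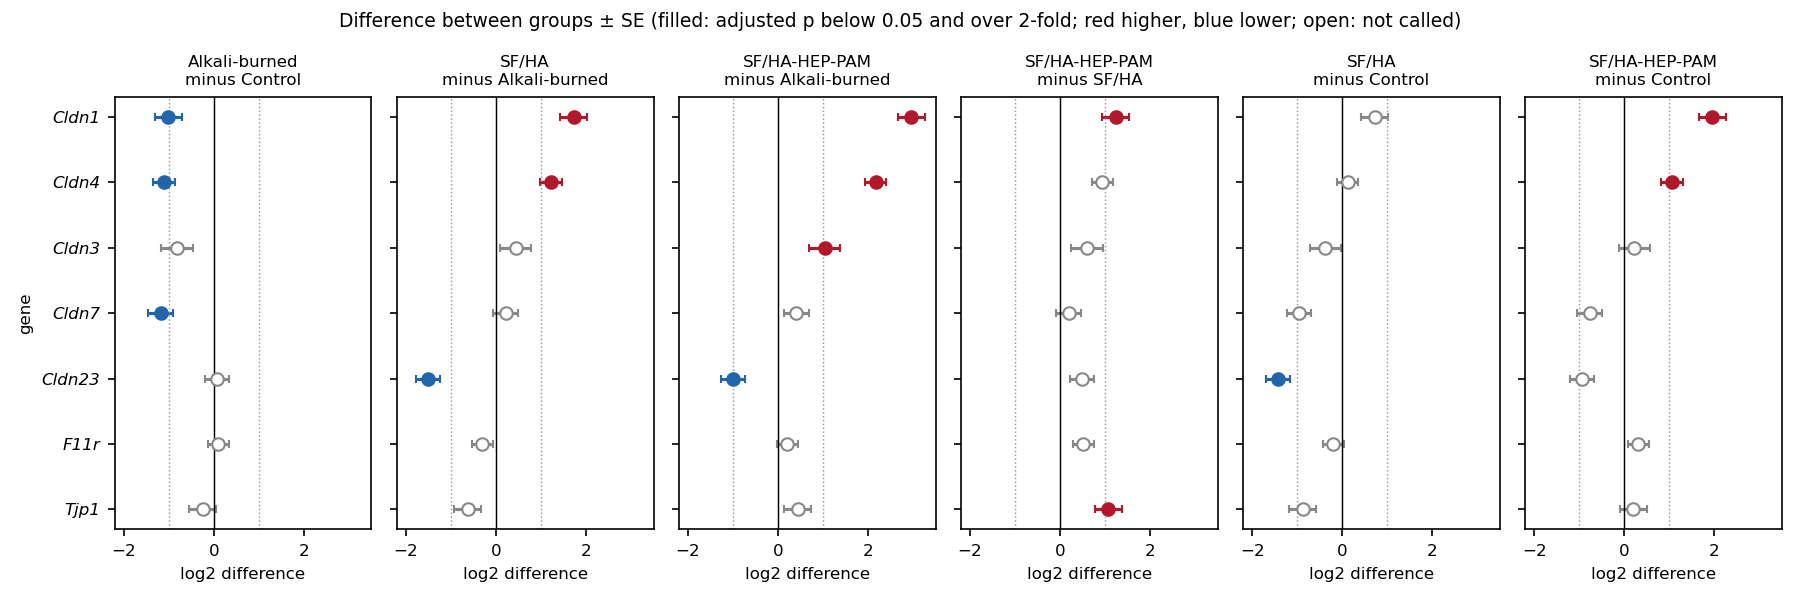
Log2 difference (log2(CPM + 2) scale) of the 7 tested genes in the 6 comparisons, with bars of 1 SE. Filled points are called, red for higher and blue for lower, and dotted lines mark 2-fold. Cldn1 and Cldn4 lie to the left in Alkali-burned minus Control and to the right in both comparisons of a patch with Alkali-burned corneas, and Cldn23 lies to the left with both patches.

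Against SF/HA, SF/HA-HEP-PAM had higher Cldn1 and Tjp1, which were 2 of the 7 genes tested, where 9.04% of all genes were called, 8.04% as higher and 1% as lower. Cldn1 averaged 209 ± 28.0 CPM with SF/HA-HEP-PAM and 89.8 ± 26.7 CPM with SF/HA, at 1.23 (SE 0.30, adjusted p = 0.0141 in limma). Tjp1 averaged 93.1 ± 33.0 and 41.7 ± 7.09 CPM, at 1.06 (SE 0.30, adjusted p = 0.0303 in limma). Cldn4 averaged 2210 ± 97.8 and 1165 ± 202 CPM, at 0.94 (SE 0.24, adjusted p = 0.0185 in limma), which was short of 2-fold and just over it without SF/HA library 1 (1.02) or 2 (1.01). The libraries of the groups did not overlap for any of these 3 genes.

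The median of all genes was at 0.22 in this comparison, and the excess over it was 1.01 for Cldn1, 0.84 for Tjp1 and 0.72 for Cldn4. With median-of-ratios scaling neither Cldn1 nor Tjp1 was called, at 1.02 and 0.85 with adjusted p of 0.0513 and 0.0690 in limma. With quantile normalization Cldn1 kept its call and Tjp1 did not (0.84, adjusted p = 0.0719 in limma). The Cldn1 call held in 10 of 12 leave-one-out fits and the Tjp1 call in 8. Without SF/HA library 3, the adjusted p in limma was 0.0784 for Cldn1 and 0.120 for Tjp1, and without SF/HA-HEP-PAM library 3 it was 0.0689 and 0.142. Tjp1 had 20 to 34 reads per SF/HA library. Epithelial markers summed to 42302 to 44515 CPM with SF/HA-HEP-PAM and 29328 to 39139 CPM with SF/HA, with 2 of 11 called higher, and keratocyte markers to 11395 to 19865 and 32886 to 35479 CPM, with 3 of 9 called lower. Neither pair of ranges overlapped, and their part in the differences was not tested. The difference was 0.60 (SE 0.35) for Cldn3, 0.51 (SE 0.23) for F11r, 0.49 (SE 0.27) for Cldn23 and 0.19 (SE 0.27) for Cldn7, none of them called.

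Set against Control corneas, the patch groups differed in which genes were called. With SF/HA, Cldn23 fell and was the 1 gene of 7 called, while 7.25% of all genes were called, 4.89% as higher and 2.36% as lower. It averaged 121 ± 40.3 CPM with SF/HA and 322 ± 68.9 CPM in Control corneas, at -1.43 (SE 0.27, adjusted p = 0.00261 in limma), and the call held in all 24 alternatives. Cldn4, at 1165 ± 202 CPM with SF/HA and 1113 ± 390 CPM in Control corneas, was at 0.12 (SE 0.24). Cldn1 was at 0.72 (SE 0.30, adjusted p = 0.155 in limma), and Cldn7 at -0.96 (SE 0.27, adjusted p = 0.0375) was short of 2-fold in the full set but called at -1.31 without Control library 1 and at -1.14 without SF/HA library 1. Tjp1 was at -0.87 (SE 0.30) and not called, but stood at -1.14 and was called without Control library 3.

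With SF/HA-HEP-PAM, Cldn1 and Cldn4 rose against Control corneas, 2 of 7 genes, while 17.4% of all genes were called, 14.2% as higher and 3.26% as lower. Cldn1 averaged 209 ± 28.0 CPM with SF/HA-HEP-PAM and 55.1 ± 22.4 CPM in Control corneas, at 1.95 (SE 0.30, adjusted p = 0.000248 in limma), a call that held in all 24 alternatives. Cldn4 averaged 2210 ± 97.8 and 1113 ± 390 CPM, at 1.06 (SE 0.24, adjusted p = 0.00416 in limma). Without Control library 1 the Cldn4 difference was 0.72, under 2-fold, and with median-of-ratios scaling it was 0.85. The median of all genes was at 0.21. Cldn23 was at -0.93 (SE 0.27, adjusted p = 0.0180 in limma), short of 2-fold, and was called with median-of-ratios scaling (-1.14), quantile normalization (-1.15), and without Control library 1 (-1.12) or SF/HA-HEP-PAM library 3 (-1.10). Cldn7 was at -0.77 (SE 0.27), F11r at 0.31 (SE 0.23), Cldn3 at 0.22 (SE 0.35) and Tjp1 at 0.19 (SE 0.30), none of them called, although Cldn7 stood at -1.12 and was called without Control library 1.

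Epithelial markers summed to 42302 to 44515 CPM with SF/HA-HEP-PAM, 29328 to 39139 CPM with SF/HA and 36001 to 62844 CPM in Control corneas. Per 1000 CPM of them, Cldn1 had 4.82 ± 0.776 CPM with SF/HA-HEP-PAM, 2.66 ± 0.809 with SF/HA and 1.02 ± 0.253 in Control corneas, and no library of a patch group overlapped Control. Cldn23 had 3.89 ± 1.09 CPM per 1000 with SF/HA-HEP-PAM, 3.67 ± 1.62 with SF/HA and 6.09 ± 0.565 in Control corneas. Against Control corneas, keratocyte markers summed to 11395 to 19865 CPM with SF/HA-HEP-PAM, 32886 to 35479 CPM with SF/HA and 27962 to 71089 CPM in Control corneas, with 5 of 9 called lower for SF/HA-HEP-PAM and 3 called lower and 1 higher for SF/HA. Of 7 myeloid markers tested, 6 rose with SF/HA-HEP-PAM and 5 with SF/HA, and the part of these cells in the differences was not tested.

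The groups also differed in the makeup of their claudin reads. The 6 claudins summed to 2852 ± 139 CPM with SF/HA-HEP-PAM, 1572 ± 201 with SF/HA, 1009 ± 117 in Alkali-burned and 1824 ± 620 CPM in Control corneas. Cldn4 made up 77.5% ± 0.403 of these reads with SF/HA-HEP-PAM, 73.8% ± 4.66 with SF/HA, 48.9% ± 3.19 in Alkali-burned and 60.8% ± 0.932 in Control corneas. Cldn23 made up 5.89% ± 1.31, 7.97% ± 3.59, 33.2% ± 3.04 and 18.3% ± 3.03 in the same order (SD, n = 3 each). For Cldn4 and for Cldn23, the Alkali-burned, Control and patch libraries formed 3 ranges that did not touch, and the patch groups overlapped each other.

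The Cldn4 to Cldn23 read ratio, which does not depend on the factor a library is scaled by, was 10.9 to 17.4 with SF/HA-HEP-PAM, 5.79 to 15.9 with SF/HA, 1.30 to 1.75 in Alkali-burned and 2.74 to 3.78 in Control corneas. Control library 1 had the lowest Cldn3, Cldn4 and Cldn7 levels of its group, but the Cldn4 share of claudin reads was 59.7% to 61.3% over the 3 Control libraries. Cldn7 made up 3.37% ± 0.423 of claudin reads with SF/HA-HEP-PAM, 5.36% ± 0.784 with SF/HA, 7.12% ± 0.754 in Alkali-burned and 9.43% ± 0.756 in Control corneas. Cldn1 made up 7.34% ± 0.856, 5.71% ± 1.48, 2.54% ± 0.594 and 3.06% ± 0.685 in the same order. The read ratio of Cldn1 to Cldn7 was 1.89 to 2.84 with SF/HA-HEP-PAM, 0.746 to 1.62 with SF/HA, 0.303 to 0.400 in Alkali-burned and 0.255 to 0.367 in Control corneas. Cldn3 had the smallest range of group means, from 5.80% ± 1.15 with SF/HA-HEP-PAM up to 8.2% ± 2.36 in Control corneas, among the 5 tested claudins. Shares count reads and not molecules per length, and no test was made on them.

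**Figure D3:**
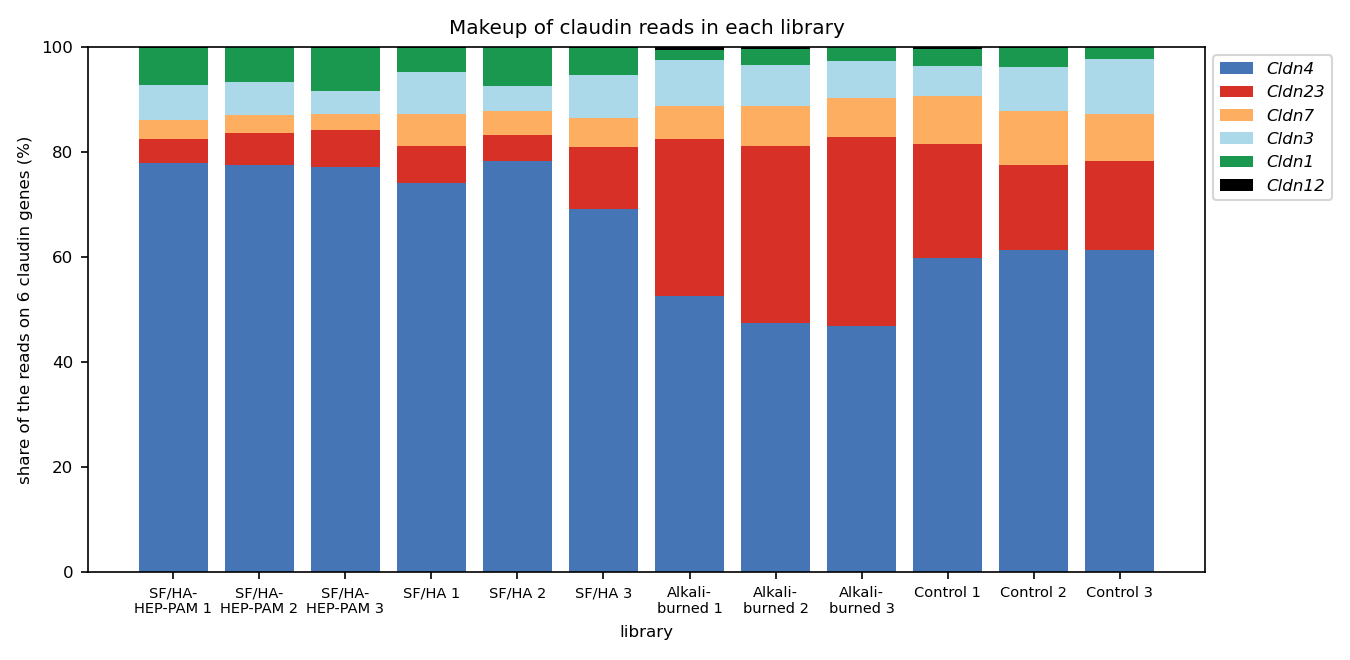
Share of each claudin gene in the reads of the 6 measured claudins (%), 1 stacked bar per library. Cldn4 takes 46.8% to 52.6% of claudin reads in Alkali-burned libraries and 77.1% to 77.9% with SF/HA-HEP-PAM, and Cldn23 takes 30.0% to 36.0% and 4.49% to 7.10%.

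Of 60 other tight junction genes listed, 53 had a row, 44 had reads and 29 were tested. In Alkali-burned against Control corneas 2 rose and 1 fell, where 8.5% of all genes were called. With SF/HA against Alkali-burned corneas 1 rose and 1 fell (3.66% of all genes called), and with SF/HA-HEP-PAM against Alkali-burned corneas 6 rose and 2 fell (18.5%). With SF/HA-HEP-PAM against SF/HA 2 rose and none fell (9.04%). Against Control corneas 2 rose and 1 fell with each patch, where 17.4% of all genes were called for SF/HA-HEP-PAM and 7.25% for SF/HA. The list's median log2 difference was -0.22 for Alkali-burned minus Control, beside 0.01 for all genes. It was -0.03 for SF/HA minus Alkali-burned (-0.03 for all genes), 0.12 for SF/HA-HEP-PAM minus Alkali-burned (0.15) and 0.42 for SF/HA-HEP-PAM minus SF/HA (0.22). Against Control corneas it was 0.21 for SF/HA-HEP-PAM (0.21 for all genes) and -0.28 for SF/HA (-0.03).

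Cldn10, a claudin whose forms make ion-selective pores, ran opposite to Cldn1 and Cldn4 in burned corneas. It had 27.2, 48.6 and 39.3 CPM with SF/HA-HEP-PAM and 61.4, 38.1 and 107 CPM with SF/HA, and it had 167, 105 and 104 CPM in Alkali-burned and 6.17, 5.64 and 15.8 CPM in Control corneas. Every library of the other groups lay above every Control library. The log2 difference in limma was 3.58 (SE 0.38, adjusted p = 1.45e-05) for Alkali-burned minus Control, and -1.66 (SE 0.38, adjusted p = 0.00447) for SF/HA-HEP-PAM minus Alkali-burned. It was 1.93 for SF/HA-HEP-PAM and 2.65 for SF/HA minus Control, and all 4 calls held in every leave-one-out fit. Corneal endothelial markers were at 558 to 855 CPM with SF/HA-HEP-PAM, 1541 to 1653 with SF/HA, 1287 to 2058 in Alkali-burned and 809 to 1980 CPM in Control corneas, sums made up mostly of Aqp1. Of the 6 endothelial markers, 3 rose in Alkali-burned against Control corneas, where 6.01% of all genes were called higher. The others were not called and overlapped Control. Aqp1 had 1076 to 1755 CPM in Alkali-burned and 740 to 1847 CPM in Control corneas. Col8a2 had 107 to 151 and 51.9 to 119 CPM, and Slc4a11 had 12.3 to 20.5 and 6.77 to 16.7 CPM in the same order. Col8a1, a collagen of Descemet's membrane, averaged 66.0 ± 26.4 CPM in Alkali-burned and 8.91 ± 4.23 CPM in Control corneas, the cadherin Cdh2 averaged 21.4 ± 4.39 and 2.77 ± 2.52 CPM, and the sodium pump subunit Atp1b1 averaged 14.8 ± 3.58 and 0.328 ± 0.568 CPM. With SF/HA-HEP-PAM against Alkali-burned corneas, 4 of the 6 fell (Aqp1, Atp1b1, Col8a1 and Col8a2), where 5.01% of all genes were called lower. The list's median log2 difference was 1.58 and -1.32 in these comparisons, beside 0.01 and 0.15 for all genes. Against Control corneas, 1 of the 6 markers was called higher with each patch. Of all genes, 14.2% were called higher there with SF/HA-HEP-PAM and 4.89% with SF/HA. The list's median there was 0.28 with SF/HA-HEP-PAM and 0.67 with SF/HA, beside 0.21 and -0.03 for all genes. The part of these markers' cells in the Cldn10 values was not tested.

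Marveld2 (tricellulin), which seals the points where 3 cells meet, had 52.4, 45.3 and 73.1 CPM with SF/HA-HEP-PAM and 29.9, 26.0 and 20.9 CPM with SF/HA. It had 2.56, 15.8 and 5.75 CPM in Alkali-burned and 12.3, 32.7 and 30.5 CPM in Control corneas. Its log2 difference in limma was 2.75 (SE 0.43, adjusted p = 0.000250) with SF/HA-HEP-PAM and 1.68 (SE 0.43, adjusted p = 0.0355) with SF/HA against Alkali-burned corneas. It was -1.56 (SE 0.43, adjusted p = 0.0273) in Alkali-burned against Control corneas, where the libraries overlapped. The first of these calls held in all 12 leave-one-out fits, the second in 6 and the third in 8.

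Lsr, the angulin that recruits tricellulin, rose by 1.13 on the log2 scale with SF/HA-HEP-PAM against Alkali-burned corneas, and Cldn17 (1.34) and Cldn8 (1.50) were called higher there too. The Lsr, Cldn17 and Cldn8 calls were lost under both other scalings, and Cldn8 had at most 16.1 CPM. Jam2 was called lower with SF/HA-HEP-PAM against Control corneas, at -1.65 (SE 0.42). Among plaque proteins, Afdn (afadin), which links nectins to actin, had 538, 451 and 654 CPM with SF/HA-HEP-PAM and 171, 154 and 124 CPM with SF/HA, and had 71.6, 182 and 155 CPM in Alkali-burned and 183, 205 and 227 CPM in Control corneas. The SF/HA-HEP-PAM libraries lay above all others, at 2.08, 1.85 and 1.40 on the log2 scale against Alkali-burned, SF/HA and Control corneas, calls that held in every leave-one-out fit.

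Pard6b, a polarity protein, had 67.0, 64.7 and 81.9 CPM with SF/HA-HEP-PAM and 29.9, 34.1 and 25.1 CPM with SF/HA, the lowest group as for Tjp1. It was called at -1.25 (SE 0.24) for SF/HA minus Alkali-burned and at 1.21 (SE 0.24) for SF/HA-HEP-PAM minus SF/HA. The second of these calls was lost with quantile normalization, at 0.98. Tjp3 (ZO-3) fell by 1.33 with SF/HA against Control corneas. Cgnl1 (paracingulin) was called at -1.72 with SF/HA-HEP-PAM against Alkali-burned corneas and Ybx3 (ZONAB) at 1.05, the second of these being under 2-fold with both other scalings. Rab13, a junctional small GTPase, rose by 1.26 in Alkali-burned and by 1.10 in SF/HA corneas against Control, calls held in 9 and 7 of 12 leave-one-out fits. By reads and not per length, Crb3 and Afdn had the highest mean CPM of the membrane and plaque lists, and Crb3 was not called in any comparison.

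Of 13 adherens junction genes, 12 were tested. With SF/HA-HEP-PAM, 10 rose against Alkali-burned, 5 against SF/HA and 7 against Control corneas, and none fell, where 13.5%, 8.04% and 14.2% of all genes were called higher. Their median log2 difference was 1.44, 0.94 and 1.27, beside 0.15, 0.22 and 0.21 for all genes. In Alkali-burned against Control corneas 1 fell (Nectin1), and with SF/HA 1 rose against Alkali-burned (Nectin1) and 1 against Control corneas (Pvr). The second Nectin1 call, at 1.02 with an adjusted p of 0.0445 in limma, held in 5 of 12 leave-one-out fits and was lost with a replicate block (adjusted p = 0.0602), and the Pvr call held in 9 of 12 leave-one-out fits. Vcl (vinculin) had 682, 535 and 728 CPM with SF/HA-HEP-PAM and 102, 234 and 91.9 CPM with SF/HA, and had 95.5, 73.5 and 66.5 CPM in Alkali-burned and 130, 50.8 and 45.3 CPM in Control corneas. It rose by 3.02, 2.29 and 3.22 with SF/HA-HEP-PAM against Alkali-burned, SF/HA and Control corneas, calls held in every leave-one-out fit. Ctnnb1 (beta-catenin), which had the highest mean CPM of the list, rose by 2.44, 1.96 and 2.12 in the same order, and Nectin1 by 2.42, 1.40 and 1.33.

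Cdh1 (E-cadherin) rose by 1.86, 1.17 and 1.26 and Nectin2 by 1.29, 1.04 and 1.27, but both calls against SF/HA were lost under the other scalings. Pvr rose by 1.53 and Cdh3 by 1.50 against Alkali-burned and by 1.92 and 1.48 against Control corneas. Jup (1.38), Nectin4 (1.37) and Epcam (1.32) rose with SF/HA-HEP-PAM against Alkali-burned corneas and were called in no other comparison. Cdh1 and Epcam also stand on the list of epithelial markers.

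Of 14 transcriptional regulators of epithelial junctions, 12 were tested. With SF/HA-HEP-PAM 6 rose against Alkali-burned and 4 against SF/HA corneas, and none fell, while 4 rose and 1 fell against Control corneas. Of all genes, 13.5%, 8.04% and 14.2% were called higher in these comparisons. The list's median log2 difference was 1.26, 0.79 and 0.85, beside 0.15, 0.22 and 0.21 for all genes. Grhl3, a Grainyhead-like factor required for the skin barrier in mice, had 307, 416 and 412 CPM with SF/HA-HEP-PAM and 109, 136 and 76.2 CPM with SF/HA. It had 26.4, 35.6 and 36.1 CPM in Alkali-burned and 55.5, 86.9 and 95.5 CPM in Control corneas. Like Cldn1, it was highest in every SF/HA-HEP-PAM library and lowest in every Alkali-burned library. Its log2 difference in limma was 3.45 (SE 0.25, adjusted p = 3.72e-07) with SF/HA-HEP-PAM and 1.63 (SE 0.25, adjusted p = 0.00119) with SF/HA against Alkali-burned corneas, and -1.20 (SE 0.25, adjusted p = 0.00564) in Alkali-burned against Control corneas. All these calls held in every leave-one-out fit.

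Klf5 rose by 2.58, 1.37 and 1.74 and Ovol1 by 2.76, 1.57 and 1.69 with SF/HA-HEP-PAM against Alkali-burned, SF/HA and Control corneas, with the calls against SF/HA lost under both other scalings. Klf4 rose by 1.65 and 1.10 against Alkali-burned and SF/HA corneas, and Tp63 (1.33) and Grhl1 (1.24) against Alkali-burned corneas. The Klf4 call against SF/HA was lost with median-of-ratios scaling, at 0.88. Among repressors of epithelial genes, Zeb2 rose against Control corneas by 1.16 with SF/HA-HEP-PAM, by 1.71 with SF/HA and by 1.50 in the Alkali-burned group. The first of these calls was lost under both other scalings and held in 10 of 12 leave-one-out fits. Control libraries had 4 to 8 Zeb2 reads. Of 7 myeloid markers tested, 6 were also called higher against Control with SF/HA-HEP-PAM, 5 with SF/HA and 6 in the Alkali-burned group. The cell type behind the Zeb2 reads was not tested. Snai1 rose by 1.24 with SF/HA against Control corneas. Twist1 was called lower in Alkali-burned (-1.14) and SF/HA-HEP-PAM (-1.59) corneas against Control, the first in 2 of 12 leave-one-out fits. Elf3, with the highest mean CPM of this list, was not called in any comparison.

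**Figure D4:**
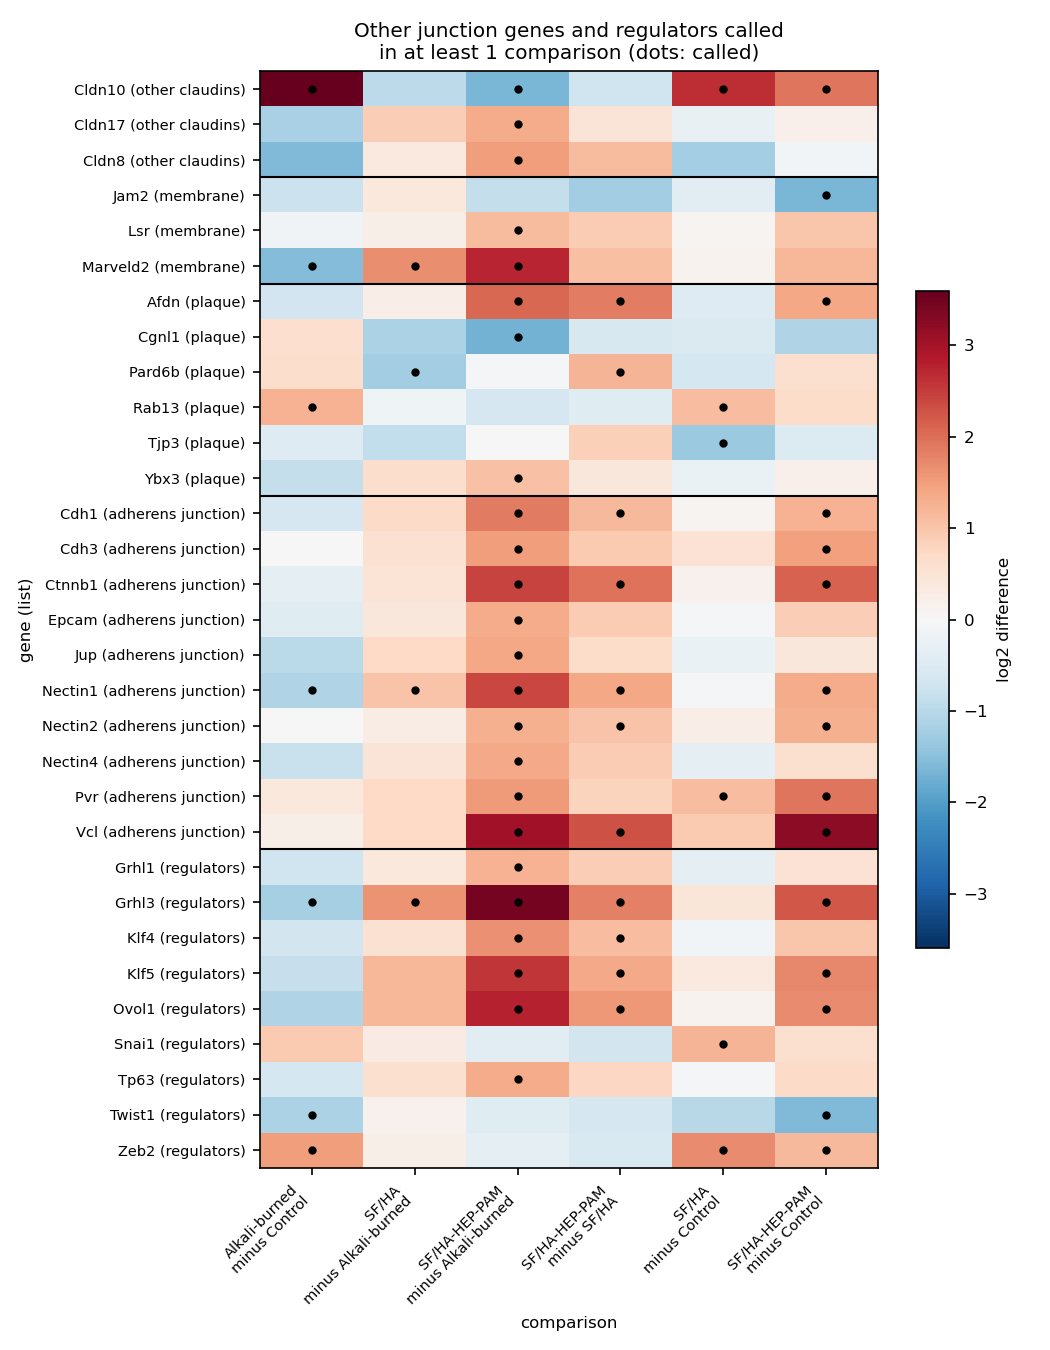
Log2 difference (colour, log2(CPM + 2) scale) of the listed claudin, membrane, plaque, adherens junction and regulator genes called in at least 1 of the 6 comparisons, with a dot where a gene was called. The column for SF/HA-HEP-PAM minus Alkali-burned holds the most dots, including 10 adherens junction genes, and Cldn10 is high in Alkali-burned minus Control at 3.58.

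For each member called in at least 1 comparison, the 3 genes with the most similar profile were found by the root-mean-square difference of centred log2(CPM + 2) values over the 12 libraries. For Cldn1 they were Met (0.325), Grhl3 (0.329) and Klf5 (0.350), beside a spread of 1.13 in Cldn1 itself. For Cldn4, with a spread of 0.81, they included Lypd3 (0.159) and the desmosomal cadherin Dsc2 (0.219). For Cldn7 they were Sytl1 (0.134), the corneal keratin Krt12 (0.175) and Urod (0.205). Cldn23 was closest to Eps8l2, Pmm1 and Scel (0.252 to 0.258), Cldn3 to Gyg1, Map3k8 and Prom1 (0.213 to 0.238), and Tjp1 to Iqgap1, Klf3 and Rock1 (0.214 to 0.231). The nearest genes of the 6 members were all different, and the libraries behind these profiles share their depth and cell makeup.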

How the data were processed

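The data are RNA-seq values of 12 libraries from rat corneas, 3 per group, with groups taken from the titles. Per the labels' protocols, cDNA was primed with barcoded poly(dT) primers carrying molecular identifiers; whether these were collapsed is not given in the sources used here. The deposited table holds FPKM values, which the authors computed from reads trimmed with fastp and counted with HTSeq-count per the series text, or featureCounts after STAR alignment to mRatBN7.2 per the submitters' processing notes.

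The table's gene length is the full span with introns in all 30452 genes. FPKM times this length gave CPM, and whole reads within 0.01 for 100% of values, 486264 to 2117399 reads per library. The 108 lines naming no gene were left out. Limma 3.58.1 in R 4.3.3, with a trend in the variance, was run on log2(CPM + 2) with all 12 libraries in 1 model of 4 group means, for genes with at least 10 CPM in at least 3 libraries. The thresholds, an adjusted p of 0.05 and 2-fold, are those of the series text. The procedure was tested on simulated data. Alternatives were other pseudocounts, filters, scalings and models, voom on the recovered reads and leaving out libraries. Floors use 3 counts, and intervals and floors cover counting error only.

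The members and lists were chosen with earlier results of these data known. Genes named besides the members are the listed genes called in at least 1 comparison, the most abundant of each list, and the 3 genes nearest in profile to each called member, of which 1 is not reported here. Summed CPM used markers of 6 cell types. Replicate numbers were not used to pair libraries across groups in the main model. Promoters came from RefSeq (GRCr8) by symbol. Plots used matplotlib 3.10.9 under Python 3.11.15.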

Additional observations from a re-analysis of the deposited data

How the results depend on the processing

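Of the 15 calls of members, 7 held in all 12 leave-one-out fits and all 12 other settings: Cldn1, Cldn4 and Cldn23 for SF/HA minus Alkali-burned, Cldn1 and Cldn4 for SF/HA-HEP-PAM minus Alkali-burned, Cldn23 for SF/HA minus Control and Cldn1 for SF/HA-HEP-PAM minus Control. In the order Alkali-burned minus Control, SF/HA minus Alkali-burned, SF/HA-HEP-PAM minus Alkali-burned, SF/HA-HEP-PAM minus SF/HA, SF/HA minus Control and SF/HA-HEP-PAM minus Control, members called ranged over leave-one-out fits from 0 to 4, 3 to 3, 2 to 4, 0 to 3, 1 to 2 and 2 to 3, and members with an F-test call from 3 to 6. Genes called ranged from 493 to 867, 126 to 372, 1172 to 1592, 379 to 860, 416 to 792 and 1070 to 1550, beside 680, 293, 1480, 723, 580 and 1393 with all libraries. They were 334, 186, 691, 351, 292 and 664 at a filter of 50 CPM, where fewer genes were tested, and 348, 149, 678, 267, 279 and 709 on log2(FPKM + 1). With only the compared libraries, SF/HA minus Control had 326. For SF/HA-HEP-PAM minus SF/HA, members called were 0 with median-of-ratios scaling and 1 on log2(FPKM + 1), with library weights and without the 4 libraries that stood apart in an earlier analysis (SF/HA-HEP-PAM 3, SF/HA 2, Alkali-burned 1 and Control 1). For SF/HA minus Control they were 2 with voom, with library weights and without those 4. Without those 4, the called differences of Cldn1 in Alkali-burned minus Control (-0.99), Tjp1 in SF/HA-HEP-PAM minus SF/HA (0.85) and Cldn4 in SF/HA-HEP-PAM minus Control (0.71) were under 2-fold. Except where a value or a setting's construction shows it, the cause was not tested.

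Scaling moved the split of higher and lower calls from 1079 and 401 to 812 and 582 (median-of-ratios) or 786 and 676 (quantile) for SF/HA-HEP-PAM minus Alkali-burned. For SF/HA-HEP-PAM minus SF/HA it was 643 and 80 against 407 and 205 or 389 and 248, and for SF/HA-HEP-PAM minus Control 1132 and 261 against 836 and 398 or 724 and 532.

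Signs turned only for log2 differences of members that were not called. In Alkali-burned minus Control, Cldn23 was -0.068 with quantile normalization and -0.12 to 0.22 when a library was left out, Tjp1 was 0.028 with weights and 0.070 without the 4 libraries, and F11r was -0.027 with quantile normalization, -0.13 with weights, -0.16 without the 4 and -0.21 to 0.26 when a library was left out. Cldn7 in SF/HA-HEP-PAM minus SF/HA was -0.021 with median-of-ratios and -0.011 with quantile scaling. Cldn4 in SF/HA minus Control was -0.18 with weights, -0.29 without the 4 and -0.21 to 0.31 when a library was left out. In SF/HA-HEP-PAM minus Control, Cldn3 was -0.17 with weights and without the 4 and -0.33 to 0.55 when a library was left out, Tjp1 was -0.0061 with median-of-ratios, -0.045 with quantile scaling and -0.080 to 0.52 when a library was left out, and F11r was -0.13 without the 4 and -0.0037 to 0.47 when a library was left out.

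Deviations of libraries with the same replicate number had 18 correlations from -0.206 to 0.224, 4 of them above 0.1, which does not exclude a weak pairing. With a replicate block, members called stayed 3, 3, 4, 2, 1 and 2, and genes called were 704, 298, 1494, 742, 595 and 1409. Of the other junction genes and regulators called, 6 of 11 calls in SF/HA-HEP-PAM minus SF/HA were lost under another scaling. Depth limits Cldn12 and Cgn throughout and Tjp1 with SF/HA.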
